A study of Mus musculus with 50 samples.

Results

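The 9 genes described here carry the glucocorticoid and corticotropin-releasing hormone (CRH) stress signals: Nr3c1, Nr3c2, Fkbp5, Sgk1, Tsc22d3, Hsd11b1, Crh, Crhr1 and Crhbp. They were taken by gene symbol from the 24552 genes in the count tables and not by a threshold on their levels. Earlier results of these data were known when they were chosen. All 9 passed the filter on low counts in every comparison. In the hypothalamic-pituitary-adrenal axis, CRH drives release of adrenocorticotropic hormone through the receptor Crhr1, and the glucocorticoids that follow act on cells through the glucocorticoid receptor (Nr3c1) and the mineralocorticoid receptor (Nr3c2). A ligand-bound receptor enters the nucleus and switches on genes such as Fkbp5, Sgk1 and Tsc22d3, and FKBP5 in turn lowers the affinity of the receptor for its hormone. CRH is also made in neurons outside the hypothalamus, the nucleus accumbens (NAc) included, where the secreted protein Crhbp binds the peptide.

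Libraries came from the NAc of C57BL/6 mice that carried RiboTag (RT), an allele that puts an HA tag on the ribosomal protein Rpl22 in cells with Cre recombinase, and either D1-Cre or D2-Cre, transgenes with Cre under regulatory sequences of the D1 or D2 dopamine receptor gene. Mice of both genotypes, RT; D1-Cre or RT; D2-Cre, were left undefeated (Con) or underwent chronic social defeat stress (CSDS) by an aggressive CD1 male for up to 10 days, after which a social interaction test sorted them into resilient (Res) and susceptible (Sus) mice. Immunoprecipitates (IPs) of tagged ribosomes were sequenced as 13 D1-IPs (4 Con, 4 Res, 5 Sus) and 15 D2-IPs (5 per group), and RNA saved from the homogenate as 18 inputs (3 per group and line). A further 4 D1-IPs came from undefeated mice of the genotype RT; Sirt1-floxed; D1-Cre and were labelled Sirt1-KO. Ages were 8 to 12 weeks in the labels of the first 46 libraries and were not given for the Sirt1-KO libraries. Every library pooled the tissue of 2 mice with similar social interaction ratios, so the p-values below measure the spread between such pools, and a Cre transgene marks every NAc cell that uses the receptor promoter, not medium spiny neurons (MSNs) alone.

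Depth ran from 18384265 to 31009626 counts on genes in the 46 libraries and from 22174187 to 31785984 in the Sirt1-KO libraries. Markers of the labelled cells followed the labels: Drd1 was at 289.6 to 404.7 CPM (normalized counts per 1e6 counts) in D1-IPs against 110.0 to 172.0 in D2-IPs, and Drd2 at 80.0 to 124.8 against 299.5 to 389.8. Astrocyte, oligodendrocyte, microglia and endothelial markers were lower in IPs than in inputs. The summed level of 6 astrocyte markers was 37.9 to 95.8 CPM in IPs against 791.2 to 1010.5 in inputs. Oligodendrocyte markers (6 genes) still summed to 403.0 to 785.7 CPM in IPs, against 3464.7 to 5398.9. Choroid plexus and ependymal markers overlapped, at 11.4 to 20.1 CPM in IPs and 9.29 to 18.4 in inputs. Cortical excitatory markers (5 genes) summed to 400.5 to 1422.7 CPM in D1-IPs, 21.8 to 317.0 in D2-IPs and 73.7 to 1120.9 in inputs, and 5 cholinergic interneuron markers to 7.73 to 30.6, 62.7 to 134.6 and 43.1 to 129.0. None of these marker genes was at 0 in every library of D1-IPs, D2-IPs or inputs. In such bulk samples, fewer cells of a type and less RNA per cell cannot be told apart.

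Fkbp5, Sgk1 and Tsc22d3 are classical targets of the glucocorticoid receptor, which binds DNA as a pair of half-sites with the letters AGAACA on one strand and TGTTCT on the other. The 250 bases upstream of each transcription start in RefSeq (GRCm38.p6) were searched for this half-site on both strands. Of the 9 genes, 7 had at least 1 window in the table, Nr3c1 and Crh had none, and 4 of the 14 windows of these 7 genes held a half-site, against 16.1% of all 32851 windows. Most of the 4 were at Sgk1, which had 6 of the 14 windows, and the rest at Tsc22d3. The 1 window of Fkbp5 held 0 half-sites. One start of Sgk1 held the inverted repeat, AGAACA followed by TGTTCT after 3 bases, an arrangement found in 0.00913% of all windows (3 windows). The stretches below run 5′ to 3′ on the strand of the gene, from 250 to 141 bases before the start, and are shown because they hold the letters searched for, printed in capitals. The first is chr10:21993640-21993749 (+), the second chr10:21881934-21882043 (+), upstream of another start of the same gene, and the third chrX:140600663-140600772 (-). None of these bases is exonic. A match of letters is a description of the window and was not tested for binding.
Sgk1, start with the inverted repeat: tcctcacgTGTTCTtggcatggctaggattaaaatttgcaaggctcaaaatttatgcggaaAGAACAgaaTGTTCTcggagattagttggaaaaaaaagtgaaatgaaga
Sgk1, start with 1 half-site: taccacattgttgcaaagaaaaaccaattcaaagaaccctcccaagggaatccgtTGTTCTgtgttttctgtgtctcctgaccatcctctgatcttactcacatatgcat
Tsc22d3: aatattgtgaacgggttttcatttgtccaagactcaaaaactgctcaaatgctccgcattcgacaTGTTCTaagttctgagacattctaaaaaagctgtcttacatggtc

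The counts sum reads over the whole of each gene, so the starts of Sgk1 cannot be told apart in them. On GRCm38 the 3 target genes lie at chr17:28399094-28517527 (Fkbp5, minus strand), chr10:21882184-21999903 (Sgk1, plus strand) and chrX:140539528-140600659 (Tsc22d3, minus strand). The receptor genes lie at chr18:39410545-39519421 (Nr3c1, minus strand) and chr8:76899442-77245012 (Nr3c2, plus strand). Hsd11b1 lies at chr1:193221634-193264075 (minus strand), Crh at chr3:19693401-19695396 (minus strand), Crhr1 at chr11:104132855-104175523 (plus strand) and Crhbp at chr13:95431371-95444924 (minus strand). All are annotated as protein-coding.

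Both corticosteroid receptors and the glucocorticoid targets were well expressed in IPs. Hsd11b1, the reductase that regenerates active glucocorticoid inside cells, was close to the limit of detection there. On the scale of CPM per kb of exon, which allows levels of different genes to be compared, the order of means in D1-IPs was Nr3c1 (17.3 ± 0.944, SD, n = 13), Sgk1 (13.6 ± 0.931), Nr3c2 (8.21 ± 0.515), Crh (7.57 ± 1.44), Fkbp5 (7.05 ± 0.391), Tsc22d3 (6.14 ± 0.502), Crhr1 (3.54 ± 0.357), Crhbp (2.93 ± 0.562) and Hsd11b1 (0.105 ± 0.062). The ranges of Nr3c1 and Sgk1 did not overlap with those of the next gene, nor did that of Tsc22d3 with Crhr1 or that of Crhbp with Hsd11b1, whereas the neighbours from Nr3c2 to Tsc22d3 overlapped pair by pair, and so did Crhr1 and Crhbp.

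In D2-IPs the order was Nr3c1 (16.9 ± 1.27 CPM per kb, SD, n = 15), Sgk1 (13.1 ± 0.782), Nr3c2 (9.61 ± 0.895), Fkbp5 (8.73 ± 0.322), Crhr1 (4.92 ± 0.498), Tsc22d3 (4.74 ± 0.653), Crh (2.94 ± 1.41), Crhbp (1.77 ± 0.341) and Hsd11b1 (0.0883 ± 0.0344). Nr3c2 and Fkbp5 overlapped, and so did each neighbouring pair from Crhr1 to Crhbp, while the other neighbours were apart. In inputs the order was Nr3c1 (14.2 ± 0.634 CPM per kb, SD, n = 18), Sgk1 (11.6 ± 1.53), Tsc22d3 (8.63 ± 0.992), Nr3c2 (7.40 ± 0.279), Crhbp (4.52 ± 1.35), Crh (4.23 ± 1.5), Fkbp5 (4.06 ± 0.293), Crhr1 (3.75 ± 0.507) and Hsd11b1 (0.642 ± 0.192), and only Hsd11b1 stood apart from its neighbour.

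Precision differed widely between the genes. The coefficient of variation over D2-IPs, stress groups included, was 3.69% for Fkbp5, 5.95% for Sgk1 and 7.51% for Nr3c1, against 48.0% for Crh and 38.9% for Hsd11b1. Hsd11b1 rested on 4 to 22 reads per IP library and 28 to 133 per input, and Crh on 13 to 238 reads per D2-IP. Nr3c1 had 2492 to 4263 reads in the IPs.

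**Figure D1:**
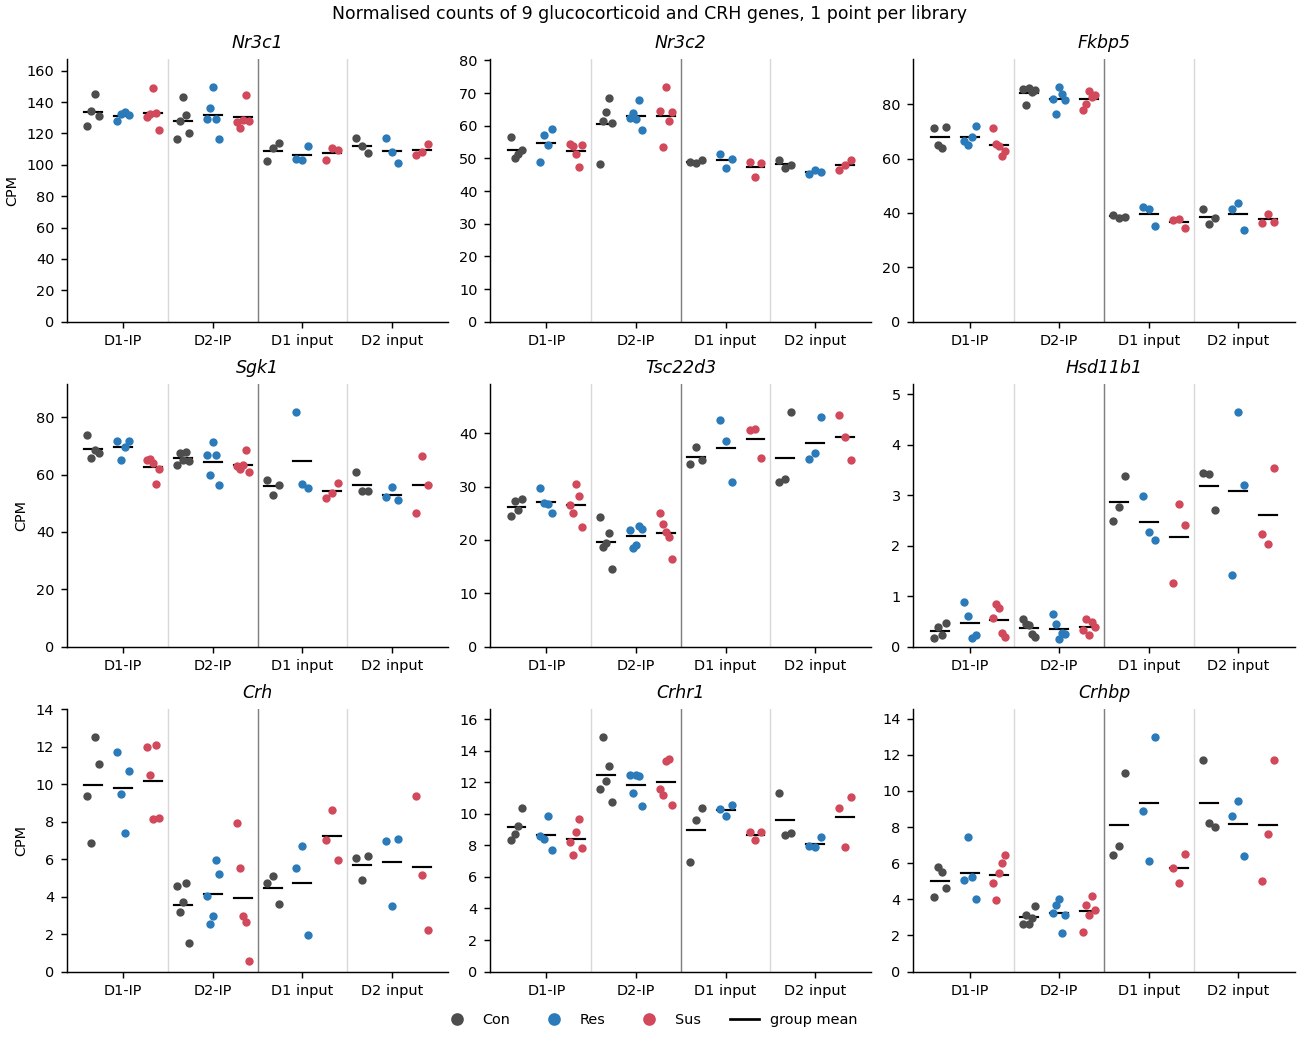
Normalized counts per 1e6 counts (CPM, y axis, linear, from 0) of the 9 genes in each library, by line, fraction and stress group. Points are libraries of 2 pooled mice and bars are group means. Fkbp5 separates D1-IPs (61.0 to 71.9 CPM), D2-IPs (76.3 to 86.2) and inputs (33.8 to 43.5), whereas the stress groups within each fraction overlap for nearly every gene.

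The first question was whether the genes changed with CSDS in D1-IPs. Of the glucocorticoid and CRH genes, Sgk1, a kinase that regulates ion channels and transporters, had the lowest p in Sus mice, and none passed the adjusted threshold. Sgk1 was at 73.7, 65.6, 68.6 and 67.6 CPM in D1 Con IPs, 71.8, 65.1, 69.5 and 71.5 in D1 Res IPs, and 64.9, 65.5, 63.8, 56.8 and 61.7 in D1 Sus IPs. All 5 Sus libraries lay below all 4 Con libraries, by a margin of 65.5 against 65.6 CPM, and the Sus and Res libraries overlapped. The level differed from Con by -9.39% in Sus (log2 difference -0.14 ± 0.06, SE, 95% interval -0.26 to -0.02), with an unadjusted p of 0.0220 and an adjusted p of 0.846 (edgeR quasi-likelihood test, Benjamini-Hochberg over 14224 genes). Against Res the difference was -10.2% (log2 -0.16, unadjusted p = 0.0132, adjusted p = 0.999, edgeR).

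The call at the unadjusted threshold was lost on leaving out either of 2 libraries, with a difference of the same direction and smaller size. Without D1 Con IP 1 the log2 difference of Sus from Con was -0.10 (edgeR unadjusted p = 0.113), and without D1 Sus IP 4 it was -0.11 against Con (unadjusted p = 0.0804) and -0.12 against Res (unadjusted p = 0.0516). Sgk1 was 1 of 9 genes past an unadjusted p of 0.05 in D1 Sus against Con, where 5.34% of all genes tested passed, and 1 of 9 in Sus against Res, where 4.23% passed. At an adjusted p under 0.05 the members counted 0 in both, as did all genes (0% of those tested by edgeR, with 759 and 601 genes at the unadjusted threshold), and DESeq2 also called 0 of all genes, with 783 and 584 unadjusted. In the same values, Sgk1 was the 1 gene of the 9 whose D1 Sus and D1 Con libraries did not overlap, which was not counted over all genes.

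Marker levels differed in the same comparison. Of the 7 MSN markers, 4 were lower in D1 Sus than in D1 Con at an unadjusted p under 0.05 by edgeR and 0 higher (list median -0.20 on the log2 scale). Of all genes, 2.84% were lower and 2.5% higher. The 4 were Ppp1r1b and the D2-MSN markers Adora2a, Drd2 and Penk, which were higher in D2-IPs than in D1-IPs. The D1-MSN markers Drd1, Pdyn and Tac1 were not among them. The summed level of the 7 was 4311 to 5374 CPM in D1 Sus IPs against 5144 to 7002 in D1 Con IPs, ranges that overlapped. The median log2 difference was 0.30 for the astrocyte markers (1 of 6 higher) and 0.32 for the cortical excitatory markers (0 of 5 past the unadjusted threshold), and summed levels of the latter were 647.0 to 1422.7 CPM in Sus against 400.5 to 1096.6 in Con. Their part in the difference of Sgk1 was not tested.

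No other member moved past a threshold in D1-IPs. Fkbp5, the co-chaperone of the receptor complex, was at 71.3, 65.0, 63.8 and 71.7 CPM in Con, 66.4, 65.0, 68.0 and 71.9 in Res, and 71.2, 65.2, 64.8, 61.0 and 62.6 in Sus. The groups overlapped, and the difference of Sus from Con was -4.65% with a 95% interval from -11.3% to 2.48%. Nr3c1 was at 125.0, 134.1, 145.2 and 131.0 CPM in Con and 130.3, 132.6, 148.9, 132.9 and 121.9 in Sus, which overlapped as well, with an interval from -9.33% to 9.04%. For Tsc22d3, which encodes the anti-inflammatory protein GILZ, the interval of Sus against Con was -13.9% to 18.3%, and for Nr3c2 it was -11.7% to 11%. Wider intervals were left for Crh (-37.6% to 66.1%), Crhbp (-18.3% to 38.8%) and Hsd11b1 (-15.9% to 233.7%). In D1 Res against Con, 0 of 9 members passed either threshold by edgeR, where 2.11% of all genes passed the unadjusted and 0.00703% (1 gene) the adjusted one. DESeq2 called 1 gene of all those tested.

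In D2-IPs no member passed a threshold in any stress comparison. Among Sus, Res and Con IPs the members past an unadjusted p of 0.05 were 0 of 9 in Sus against Con (3.68% of all genes), 0 of 9 in Res against Con (3.02%) and 0 of 9 in Sus against Res (1.66%), and the adjusted threshold was passed by 0% of all genes in each by edgeR (523, 430 and 236 unadjusted) and by 0 by DESeq2 (525, 434 and 233 unadjusted). All 9 overlapped between each pair of groups. Sgk1 was at 63.2, 67.7, 64.9, 68.0 and 64.6 CPM in D2 Con, 66.7, 59.8, 71.2, 66.8 and 56.5 in D2 Res and 62.8, 61.9, 63.3, 68.4 and 60.8 in D2 Sus, and the difference of Sus from Con was -3.35% (95% interval -10.7% to 4.60%). For Fkbp5 it was -2.81% (-9.16% to 3.99%) and for Nr3c1 1.91% (-6.60% to 11.2%).

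Crh had the widest spread of the 9 within the D2 Sus group, a coefficient of variation of 72.4%. Its levels there were 7.93, 5.54, 2.98, 2.66 and 0.558 CPM, against 4.55, 3.20, 3.74, 4.72 and 1.55 in D2 Con. Both the highest and the lowest D2-IP of all were thus Sus libraries, and the interval of the difference ran from -33.5% to 86.4%. The summed cortical excitatory markers were 21.8, 151.9, 226.0, 258.1 and 317.0 CPM in the same 5 Sus libraries, so that the library with the most Crh had the least of these markers and the one with the least Crh the most.

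An effect seen in D1-IPs and not in D2-IPs does not show that the subtypes differ, so the difference itself was tested. The Sus effect on Sgk1 in D1 minus that in D2 was -0.09 on the log2 scale (95% interval -0.26 to 0.07, unadjusted p = 0.259, edgeR). Of the 9 members, 0 passed either threshold for the Sus effect or the Res effect, where 0% of all genes passed the adjusted one (259 and 335 genes passed the unadjusted one by edgeR, and DESeq2 also called 0, with 240 and 333 unadjusted).

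**Figure D2:**
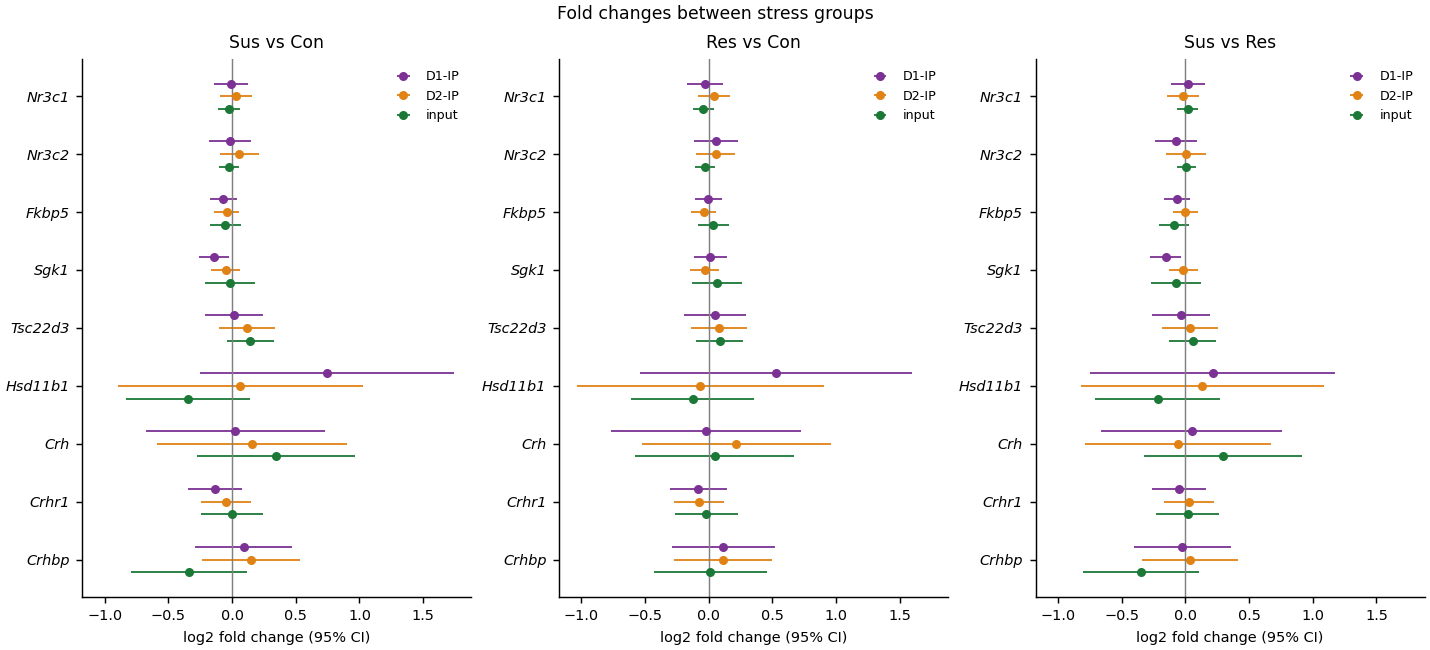
Log2 fold changes (x axis) of the 9 genes between stress groups in D1-IPs, D2-IPs and inputs, as points with 95% intervals from the edgeR quasi-likelihood fit. Sgk1 in D1 Sus lies left of 0 with an interval of -0.26 to -0.02 against Con, and the other intervals against Con include 0.

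In inputs, which hold RNA of all NAc cells, the 9 genes also overlapped between every pair of stress groups. Past an unadjusted p of 0.05 the count was 0 of 9 in Sus against Con (4.47% of all genes), 0 of 9 in Res against Con (3.23%) and 0 of 9 in Sus against Res (5.54%), and by edgeR 0% of all genes passed the adjusted threshold in each, whereas DESeq2 called 3, 1 and 0 genes. Sgk1 was at 58.1, 53.0 and 56.3 CPM in D1 Con inputs and 60.8, 54.1 and 54.2 in D2 Con inputs, with Sus inputs at 52.0, 53.5 and 57.2 (D1) and 46.7, 66.4 and 56.2 (D2). One Res input of the D1 line stood at 81.7 CPM, above every other library of the 46, while its IP was at 71.8. The interval of Sus against Con for Sgk1 in inputs was -13.5% to 13.4%, and for Fkbp5 -11.3% to 4.81%.

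Crhbp differed by -20.8% between Sus and Con inputs, with a 95% interval from -42.2% to 8.34%, and Crh 27.1% higher (-17.2% to 95.3%). Without D2 Sus input 3, both passed the unadjusted threshold and not the adjusted one (Crhbp log2 -0.54, adjusted p = 0.531, and Crh log2 0.55, adjusted p = 0.567, edgeR). Crhbp in that library was 11.7 CPM against 4.92 to 7.62 in the other 5 Sus inputs, and its summed cortical excitatory markers were 1020.2 CPM against 73.7 to 587.0. Their part in the difference was not tested. The stress effect in inputs minus that in IPs was past the threshold for 0 of 9 members and 0% of all genes in both the Sus and the Res comparison by edgeR, as it was by DESeq2. At an unadjusted p under 0.05 edgeR gave 0 members, and 437 and 401 of all genes, and DESeq2 427 and 392.

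Genes around the 9 in the pathway were followed from lists of chaperones and coregulators of the receptor (11 genes), steroid metabolism and efflux (5, of which 4 were tested), further glucocorticoid target genes (24, of which 23 were tested) and peptides related to CRH (10, of which 7 were tested). None passed the adjusted threshold in any stress comparison of IPs or inputs by edgeR. Below an unadjusted p of 0.05 in D1 Sus against Con, 3 of 11 chaperones and coregulators and 1 of 23 targets were higher, where 2.5% of all genes were, and 0 were lower, where 2.84% of all genes were. The count of targets is thus near that background. Their medians were 0.06 and 0.07 on the log2 scale, beside a median of -0.000409 over all genes tested.

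D1-IPs and D2-IPs differed in 5 of the 9 genes. In undefeated mice Crh, Crhbp and Tsc22d3 were higher in D1-IPs, and Fkbp5 and Crhr1 were higher in D2-IPs. RNA of the CRH gene and RNA of its receptor gene thus stood on opposite sides. These were 5 of the 9 members at an adjusted p under 0.05, where 14% of all genes passed, and 2 of the 9, Crh and Crhbp, also passed a fold change of 1.5, where 4.98% did. In the same values, the D1 Con and D2 Con libraries of these 5 genes did not overlap, 3 above and 2 below. Such separation was not counted over all genes.

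Crh was at 9.38, 6.88, 12.5 and 11.1 CPM in D1 Con IPs and 4.55, 3.20, 3.74, 4.72 and 1.55 in D2 Con IPs. Every D1 library was above every D2 library, and the level was 2.76-fold higher (log2 1.46, 95% fold interval given as 64.4% to 362.0% higher, adjusted p = 0.00636, edgeR quasi-likelihood test). Crhbp was at 4.10, 5.80, 5.52 and 4.65 CPM in D1 Con against 2.61, 3.15, 2.63, 2.96 and 3.62 in D2 Con, again without overlap, and was 1.67-fold higher (log2 0.74, adjusted p = 0.00956, edgeR). The type 1 CRH receptor gene Crhr1 was the reverse, at 8.35, 8.73, 9.23 and 10.4 CPM against 11.6, 14.9, 12.1, 13 and 10.8, a difference of -27.1% (log2 -0.46, adjusted p = 0.00278, edgeR).

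Fkbp5 was at 71.3, 65.0, 63.8 and 71.7 CPM in D1 Con IPs and 85.6, 79.8, 85.9, 84.3 and 85.4 in D2 Con IPs. The difference of -20.0% was small beside that of Crh but far larger than the spread between libraries (log2 -0.32, adjusted p = 5.35e-05, edgeR). Tsc22d3 went the other way, at 24.5, 27.3, 25.6 and 27.7 CPM in D1 Con and 24.2, 18.7, 19.4, 21.3 and 14.6 in D2 Con, with the lowest D1 library just above the highest D2 library (log2 0.40, adjusted p = 0.0155, edgeR). This call was lost on leaving out D1 Con IP 2, D1 Con IP 4 or D2 Con IP 5, where the log2 difference was 0.38, 0.38 and 0.31 (adjusted p from 0.0530 to 0.0649, edgeR). Fkbp5 and Tsc22d3 thus differed between D1-IPs and D2-IPs in opposite directions, and Sgk1 did not pass, with an interval of -4.32% to 13.1%.

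Nr3c1 levels in D1 Con and D2 Con differed by 3.66% (95% interval -5.47% to 13.7%, adjusted p = 0.663, edgeR). Nr3c2 differed by -13.9% in D1 Con IPs (adjusted p = 0.0724), where D2 Con IP 1 at 48.1 CPM lay below the other 4 at 60.7 to 68.5, and it passed without that library (adjusted p = 0.00662, edgeR). Averaged over the 3 stress groups, 6 of 9 members differed between D1- and D2-IPs at an adjusted p under 0.05, where 40.8% of all genes did. Nr3c2 joined the 5 above, at -15.3% in D1 (log2 -0.24, adjusted p = 0.000107, edgeR), and Hsd11b1 was left with an interval of -24.3% to 66.9%. Fkbp5 and Crhr1 were the 2 of the 9 genes whose 13 D1-IPs all lay below all 15 D2-IPs, which was not counted over all genes.

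The D2-line and D1-line inputs did not separate for any member. Of the 9, 0 passed an adjusted p of 0.05 by edgeR, where 0.0202% of all genes (3 genes) did and 14 did by DESeq2, and all 9 overlapped. The interval of the D2 line against the D1 line was -25.2% to 51.2% for Crh, -13.4% to 44.3% for Crhbp and -5.78% to 7.98% for Fkbp5.

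Marker levels moved with the subtype comparison. The cortical excitatory markers were at 400.5 to 1096.6 CPM in D1 Con IPs against 89.5 to 282.1 in D2 Con IPs, and 4 of the 5 were higher at an adjusted p under 0.05. The cholinergic markers were at 10.7 to 12.1 CPM in D1 Con IPs, and 4 of the 5 were lower than in D2 Con IPs. The part of either cell type in the differences of Crh, Crhbp, Crhr1 or Fkbp5 was not tested. The relations across libraries given below cover only Crh and Crhbp with the cortical markers. Those relations were taken within inputs, D1-IPs and D2-IPs separately, so they do not address the difference between D1 Con and D2 Con IPs.

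Of the pathway lists, 4 of 23 glucocorticoid targets were lower in D1 Con IPs at an adjusted p under 0.05 and 0 higher, where 6.26% of all genes were lower and 7.73% higher (list median -0.17, all genes -0.01, log2). In both directions together the share of the list is close to the 14% of all genes. These were Nedd9 (log2 -0.65 ± 0.12, SE), Nfkbia (-0.29 ± 0.09), Per1 (-0.28 ± 0.08) and Klf9. Nedd9 encodes a scaffold of integrin signalling, Nfkbia the inhibitor of NF-kappaB, Per1 a component of the circadian clock and Klf9 a transcription factor. Among the chaperones, Hsp90aa1, which holds the receptor ready for hormone, was higher (0.20 ± 0.07). Among the peptides, Adcyap1, which encodes PACAP, was higher (2.95 ± 0.39) and Avp, which encodes vasopressin, was also called, with 10 to 27 reads per D1 Con IP and 0 in each of the 5 D2 Con IPs.

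**Figure D3:**
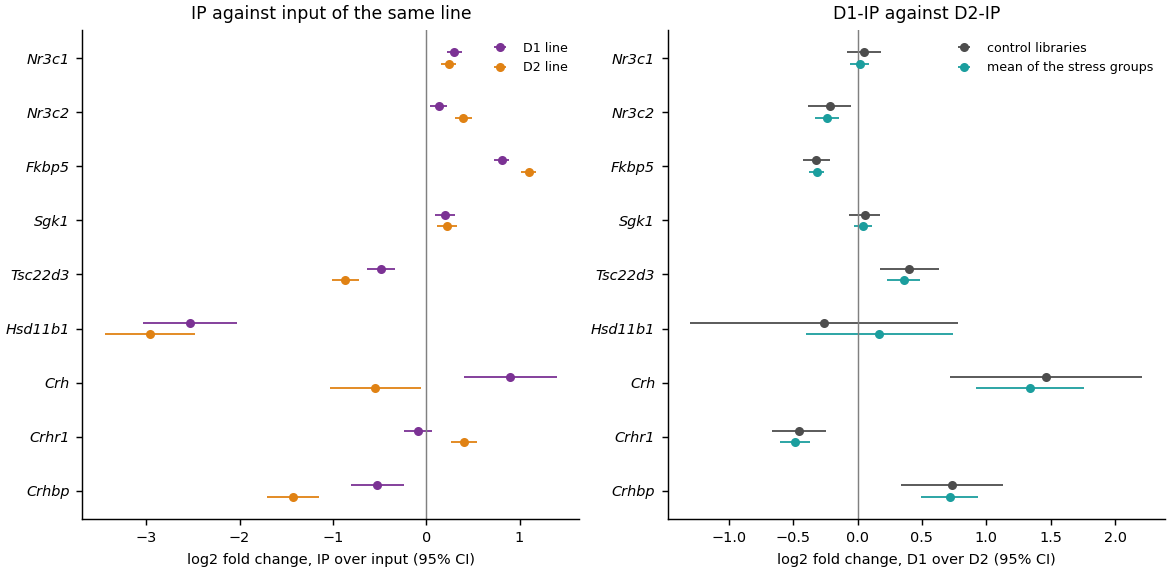
Log2 fold changes (x axis) of the 9 genes between D1 and D2 IPs and between IPs and inputs of each line, as points with 95% intervals from the edgeR quasi-likelihood fit. Crh and Crhbp lie furthest to the D1 side, Fkbp5 and Crhr1 to the D2 side, and Hsd11b1 is the most depleted from both IPs (log2 -2.53 and -2.96).

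Comparing IPs with inputs asked how far RNA of each gene was enriched on tagged ribosomes over the whole tissue. Fkbp5 was enriched the most of the 9 in D2-IPs and Hsd11b1 depleted the most in IPs of both lines. Summed cortical excitatory markers had a median of 751.7 CPM in D1-IPs, 198.7 in D2-IPs and 515.2 in inputs. For cholinergic markers the medians were 11.7, 87.7 and 76.3. A higher level in IPs thus does not assign a gene to MSNs. At an adjusted p under 0.05 by edgeR, 8 of 9 members differed between D1-IPs and D1-line inputs (5 higher, 3 lower), where 81.9% of all genes did, and all 9 did in the D2 line (5 higher, 4 lower), where 82.7% did. The share of members is therefore close to that of all genes. With so many genes different, the normalization assumption that most genes do not change is not met, and folds are relative to a median of -0.04 (D1) and -0.08 (D2) over all genes.

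Fkbp5 in inputs ran from 33.8 to 43.5 CPM with a median of 38.2, against 61.0 to 71.9 in D1-IPs and 76.3 to 86.2 in D2-IPs, and the 3 sets did not overlap. It was 1.75-fold higher in D1-IPs (log2 0.81) and 2.14-fold higher in D2-IPs (log2 1.10) than in the inputs of the line. Nr3c1 was 1.23-fold (D1) and 1.18-fold (D2) higher in IPs, Sgk1 1.15-fold and 1.17-fold, and Nr3c2 1.10-fold and 1.32-fold. The D1 value of Nr3c2 lost its call with control libraries only (log2 0.11, adjusted p = 0.284, edgeR).

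Tsc22d3 was lower in IPs, with inputs at 30.9 to 44.0 CPM (median 36.8) against 22.4 to 30.5 in D1-IPs and 14.6 to 25.1 in D2-IPs (log2 -0.48 and -0.87). No IP reached the lowest input of the same line. Hsd11b1 was at 1.26 to 4.64 CPM in inputs (median 2.74), 0.174 to 0.888 in D1-IPs and 0.156 to 0.641 in D2-IPs, a fall to 0.173-fold and 0.128-fold of the input level. Its IPs and inputs did not overlap in either line. Summed markers of astrocytes, microglia and endothelial cells were also lower in every IP than in every input, and the part of these cells in the difference was not tested.

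The CRH genes split by line. Crh was 1.87-fold higher in D1-IPs than in the inputs (log2 0.90, adjusted p = 0.000939, edgeR), and 0.685-fold in D2-IPs (log2 -0.54, adjusted p = 0.0359). The D2 value was no longer called on leaving out any of many single libraries, and without D2 Sus input 1, the input with the highest Crh (9.38 CPM), it was -0.29 (adjusted p = 0.271, edgeR). Crhr1 was higher in D2-IPs (log2 0.41), while in D1-IPs its interval ran from -15.0% to 4.05%. Crhbp was lower in both, at 0.695-fold in D1-IPs and 0.373-fold in D2-IPs, and the D2-IPs (2.13 to 4.17 CPM) lay below all D2-line inputs (5.02 to 11.7).

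The enrichment in D1 minus that in D2 was past an adjusted p of 0.05 for 6 of 9 members, where 25.5% of all genes passed. It was 1.45 for Crh, 0.90 for Crhbp and 0.39 for Tsc22d3 on the log2 scale, and -0.50 for Crhr1, -0.29 for Fkbp5 and -0.26 for Nr3c2. With control libraries only, a comparison added after the values were seen, 2 of 9 passed (Crh and Fkbp5), where 5.09% of all genes did. The differences no longer called were 0.93 for Crhbp, 0.40 for Tsc22d3, -0.37 for Crhr1 and -0.24 for Nr3c2 in these libraries.

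In the lists, 9 of 11 chaperones and coregulators were higher in IPs and 1 lower (Ncoa3, a receptor coactivator), in both lines. Of all genes, 39.2% were higher and 42.7% lower in D1 and 37.8% higher and 44.9% lower in D2, so 10 of 11 called in either direction is near the background, as are the counts of targets and of steroid genes that follow. Hspa8 (log2 1.15 in D1), Hsp90aa1 (1.14) and Hsp90ab1 (1.08) rose the most of them. The list median was 0.49 in D1 and 0.53 in D2, against -0.04 and -0.08 over all genes. Glucocorticoid targets were on both sides, with 8 higher and 12 lower of 23 in D1 and 9 higher and 12 lower in D2. Pdk4 (log2 -3.88 in D1), Sult1a1 (-3.74) and Mt2 (-3.39) were the most depleted, and Nedd9 (2.24), Dusp1 (0.74) and Cdkn1a (0.68) the most enriched. Of 4 genes of steroid metabolism and efflux, 3 were lower in both lines, among them Abcb1a (-4.68 in D1), which encodes a pump of the blood-brain barrier.

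Crh and Crhbp also varied from library to library, and did so in opposite directions with the cortical excitatory markers. Across the 18 inputs, log2 Crhbp followed the log2 summed markers with Pearson's r of 0.867 and Spearman's rho of 0.936 (permutation p = 1e-05 for each, the smallest that 100000 permutations can give, adjusted over 6 relations to 6e-05), and r was 0.923 without the 2 libraries farthest from the median. Crh went down as the markers went up (r = -0.705, rho = -0.674, permutation p = 0.00127, adjusted p = 0.00381), with r = -0.772 without the 2 farthest libraries. The inputs with the most markers were D1 Res input 3 (1120.9 CPM), where Crhbp was 13 CPM and Crh 1.94, and D2 Sus input 3 (1020.2 CPM), where they were 11.7 and 2.22. The input with the fewest was D2 Sus input 1 (73.7 CPM), with Crhbp at 5.02 and Crh at 9.38.

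Within IPs the relations had the same signs. In D1-IPs r was 0.658 for Crhbp (rho = 0.720, permutation p = 0.0134, adjusted p = 0.0161, n = 13) and -0.439 for Crh (rho = -0.390, permutation p = 0.134), and in D2-IPs 0.731 for Crhbp (rho = 0.486, permutation p = 0.00210, adjusted p = 0.00420, n = 15) and -0.667 for Crh (rho = -0.729, permutation p = 0.0106, adjusted p = 0.0158). The D2-IP value for Crhbp fell to 0.340 without the 2 farthest libraries and so rested on them, and without the 2 farthest r was 0.719 for Crhbp in D1-IPs, -0.554 for Crh in D1-IPs and -0.561 for Crh in D2-IPs. These 6 relations were added after the values were seen. Libraries share the dissection of a pool, and which tissue each punch held was not recorded in the labels.

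**Figure D4:**
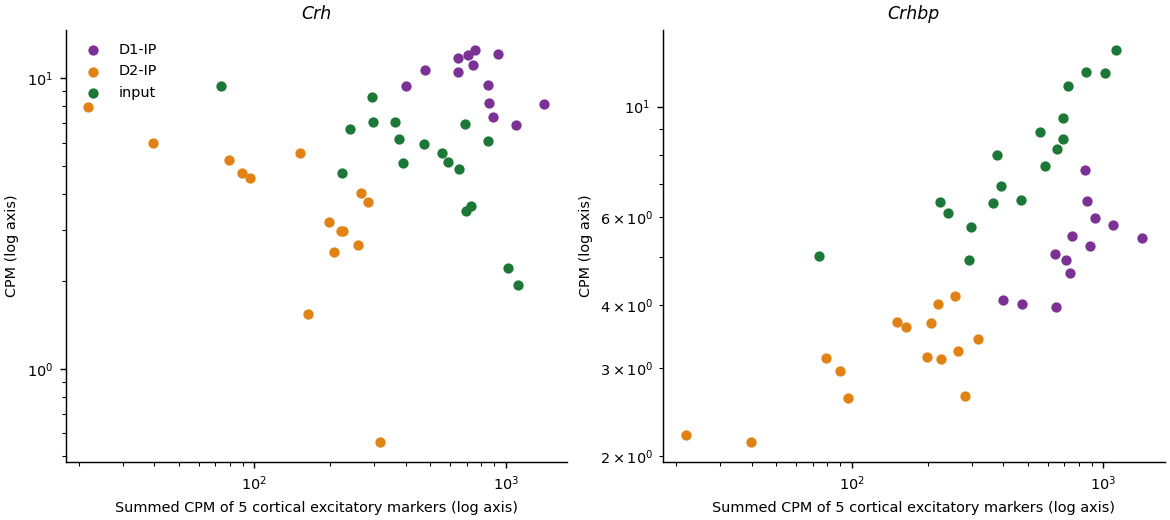
Level of Crh (left) and Crhbp (right) on the y axis, in CPM, against the summed CPM of 5 cortical excitatory markers on the x axis, both log axes, with 1 point per library, for inputs, D1-IPs and D2-IPs. Across the 18 inputs Crhbp rises with the markers (r = 0.867 on log2 values) and Crh falls (r = -0.705).

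Whether the 3 glucocorticoid targets vary together over pools was asked with 15 relations, and none passed after adjustment. Fkbp5 and Sgk1 had the highest r, 0.698 in D1-IPs (rho = 0.681, permutation p = 0.00698, adjusted p = 0.105, n = 13), which was 0.694 without the 2 libraries farthest from the median. In D2-IPs r was 0.417 (rho = 0.436, permutation p = 0.124, adjusted p = 0.464, n = 15) and in inputs 0.467 (rho = 0.470, permutation p = 0.0465, adjusted p = 0.349, n = 18), with 0.256 and 0.503 without the 2 farthest. Tsc22d3 had r from -0.212 to -0.0231 with the other two over the 3 sets, with adjusted permutation p of 0.964 in each. Without the 2 farthest libraries these r ran from -0.657 to 0.284, and the lowest was that of Sgk1 and Tsc22d3 in inputs (-0.0231 with all 18, rho = -0.350), which moved so on leaving out D1 Res input 1 and D2 Sus input 2. Between the IP and the input of a pool, over the 9 pools of a line, r ran from -0.394 (Sgk1 in D2) to 0.553 (Sgk1 in D1), with adjusted permutation p of 0.464 or more.

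Genes whose levels were most like each member over the 18 inputs were ranked by Pearson's r of log2 CPM, as a description with no test, since all points share the composition of the tissue. Crhbp was nearest to Mef2c (r = 0.960), Lingo1 (0.955) and St3gal5 (0.953), and Crh to Stk32b (0.911), Gabrq (0.902) and Agt (0.894). Crhr1 was nearest to Gca (0.902), Ntrk2 (0.811) and Aqp4 (0.790), the last of which is an astrocyte water channel. Nr3c1 was nearest to Atp2c1 (0.893), Tsc22d3 to Bcam (0.881), Fkbp5 to Atg4d (0.843), Hsd11b1 to Zfp560 (0.815), Nr3c2 to Dennd1a (0.802) and Sgk1 to Prkcz (0.768). Over the 28 IPs, each centred on the mean of its line, Crh was nearest to Ngb (0.914), AW551984 (0.908) and Irs4 (0.891), Tsc22d3 to Kcnc2 (0.813), Sgk1 to Sowaha (0.770) and Fkbp5 to Rem2 (0.685). The nearest gene to a member thus differed between inputs and IPs for each of these 4.

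The last comparison was of D1-IPs labelled Sirt1-KO with the 4 D1 Con IPs, both from undefeated mice. Ages of the Sirt1-KO mice and the sequencing sets are not in the labels. Genotype thus cannot be told apart from a difference in either. Sirt1, the targeted deacetylase gene, was at 15.2, 16.2, 13.2 and 10.2 CPM in the libraries labelled Sirt1-KO and 13.1, 16.6, 14.8 and 14.4 in D1 Con, which overlapped (log2 -0.10 ± 0.13, SE, adjusted p = 0.768, edgeR). These counts cover the whole gene, of which a floxed allele removes only a part, so they do not check the deletion. CPM values here are scaled within the table of these 8 libraries.

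None of the 9 members passed the adjusted threshold between the 2 groups by edgeR, where 1.66% of all genes (226 of 13626) did, and 2 passed the unadjusted one, where 17.3% did. Crh was at 6.46, 3.33, 3.84 and 6.70 CPM in the libraries labelled Sirt1-KO against 8.87, 6.52, 11.8 and 10.5 in D1 Con. One labelled library, at 6.70, lay above the lowest control, and the difference was -46.7% (log2 -0.91, 95% interval -1.44 to -0.38, unadjusted p = 0.00291, adjusted p = 0.0814, edgeR). Crhbp was at 6.14, 10.1, 8.38 and 4.84 CPM against 3.88, 5.49, 5.23 and 4.42, with the lowest labelled library inside the range of the controls (log2 0.64, unadjusted p = 0.0110, adjusted p = 0.146, edgeR). DESeq2 called Crh (adjusted p = 0.00671) and not Crhbp. Without the labelled replicate 5, edgeR called both (log2 -1.07 and 0.78, adjusted p = 0.0233 for each).

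The cortical excitatory markers were at 852.6 to 1605.2 CPM in the libraries labelled Sirt1-KO against 378.8 to 1039.1 in D1 Con, and the cholinergic markers at 4.13 to 8.51 against 10.1 to 11.5. The summed MSN markers were at 3575 to 5242 CPM (median 3898) against 4894 to 6622 (median 4962), with 1 of 7 lower at an adjusted p under 0.05 by edgeR. The GABAergic interneuron markers were at 157.9 to 193.3 CPM against 120.3 to 158.8, with 2 of 6 higher. Crh and Crhbp, which moved oppositely with the cortical markers across inputs, also lay in opposite directions here, and the part of the markers in the difference was not tested.

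Levels of the other 7 members overlapped between the groups. Sgk1 was at 62.9, 61.6, 61.7 and 52.6 CPM in the libraries labelled Sirt1-KO and 69.7, 62.2, 65.0 and 64.3 in D1 Con, with an interval of -17.5% to 1.40%. The interval was -10.9% to 9.18% for Fkbp5, -7.02% to 10.9% for Nr3c1, -11.4% to 8.77% for Nr3c2 and -15.7% to 5.45% for Tsc22d3. Of 20 glucocorticoid targets tested, 1 was called, Zbtb16 (log2 0.79 ± 0.14, SE, adjusted p = 0.0257, edgeR), a transcription factor of the zinc finger family, and the other lists had 0 genes past the adjusted threshold.

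**Figure D5:**
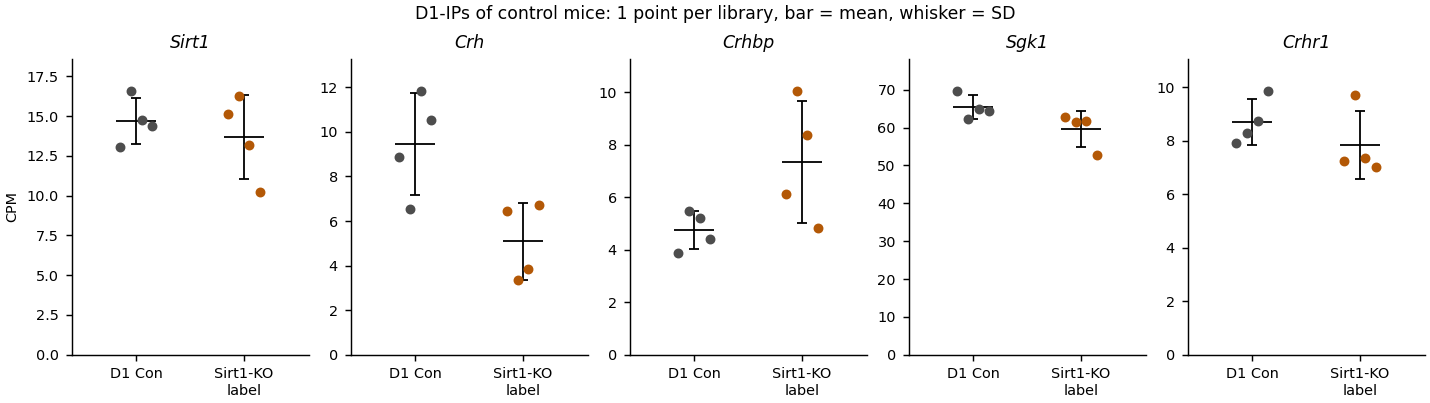
Normalized counts per 1e6 counts (CPM, y axis, linear, from 0) of Sirt1, Crh, Crhbp, Sgk1 and Crhr1 in D1 Con IPs and in the D1-IPs labelled Sirt1-KO, 4 libraries each. Points are libraries, bars means and whiskers 1 SD. Crh lies lower and Crhbp higher in the labelled libraries (log2 -0.91 and 0.64), and the groups overlap for all 5 genes.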

How the data were processed

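The 50 libraries measured RNA of the NAc, each in 2 pooled mice. The authors selected poly-A RNA, made stranded libraries, trimmed reads with cutadapt, aligned them to mm10 with STAR and counted them per gene with HTSeq. The deposited values are these counts, whole numbers without normalization. The submitters' notes on the Sirt1-KO libraries do not name the counter, and versions, annotation and the strand setting of the counting are not given in the sources used here. Entries that name no gene (18.02% to 28.27% of reads in IPs, 35.89% to 39.99% in inputs and 19.18% to 23.79% in Sirt1-KO libraries) were left out, and 2 columns of counts without a matching sample were not used. The authors ran the samples in sets on the sequencer, and the labels do not name these, so no values within a set are given.

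Samples were grouped by their labels. With edgeR 4.0.16 (R 4.3.3), TMM factors, CPM (per 1e6 counts) and quasi-likelihood tests were obtained from the counts of genes kept by filterByExpr (minimum count 10, minimum total 15), in models of the 28 IPs (14224 genes), the 18 inputs with line as a covariate (14820), all 46 libraries (15404) and the 8 libraries of the Sirt1-KO table (13626). Benjamini-Hochberg adjustment of p-values covered all genes tested, and intervals are at 95%. Stress contrasts were also counted below an unadjusted p of 0.05 and D1 Con against D2 Con also at a fold change over 1.5. Correlations used log2 CPM with a prior count of 2 and two-sided permutation tests (100000 permutations, or exact over 9 pools). The programs were tested on simulated counts with genes of known change. Alternatives were RLE size factors, no filter, DESeq2 1.42.0, only the libraries compared, single lines, control libraries only, the replicate block and each library left out. Positions are from GENCODE on GRCm38, and levels per kb use the summed exon length. Figures were drawn with matplotlib 3.10.9.

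An input was saved from the homogenate of its IP and shares its number in the title, so the 2 libraries are paired by source (their deviations from the group means correlated with r from -0.191 to 0.506 over 18 pools). The members and gene lists were chosen with earlier results of these data known. Named genes are the 9 members, Sirt1, up to 3 genes per list and direction with the largest change among those called, and the genes nearest to a member by r. Klf9 was named after its values were seen.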

Additional observations from a re-analysis of the deposited data

Results flagged for a closer look

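The enrichment of IPs over inputs differed between the D1 and D2 lines for 6 of the 9 genes, where 25.5% of all genes did, by a test of the difference itself (edgeR quasi-likelihood test, adjusted p under 0.05 over 15404 genes). It was 1.45 on the log2 scale for Crh, 0.90 for Crhbp and 0.39 for Tsc22d3, each more enriched in D1, and -0.50 for Crhr1, -0.29 for Fkbp5 and -0.26 for Nr3c2, each more enriched in D2. With control libraries only, Crh and Fkbp5 were still called, where 5.09% of all genes were. Crhbp, Tsc22d3, Crhr1 and Nr3c2 were then not called.

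A single library stood apart from its group by Dixon's test in 4 of 63 combinations of gene and group, where chance gives about 1 in 20. Nr3c1 was at 144.7 CPM in D2 Sus IP 4 (others 123.3 to 128.6). Fkbp5 was at 79.8 CPM in D2 Con IP 2 (others 84.3 to 85.9). Sgk1 was at 52.6 CPM in the library labelled Sirt1-KO 5 (others 61.6 to 62.9). Crhr1 was at 9.71 CPM in the library labelled Sirt1-KO 3 (others 7.02 to 7.37). Their cause was not tested.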

How the results depend on the processing

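The settings were RLE size factors, no filter on low counts, DESeq2, narrower models and the replicate block. Over these, 823 of 863 log2 fold changes of the 9 genes kept their direction and side of the threshold. Of the rest, 6 lost and 5 gained a call, 29 moved and 0 reversed. On leaving out single libraries these were 5036, 31, 8, 235 and 0 of 5310. The members past an unadjusted p of 0.05 ranged from 0 to 1 in D1 Sus against Con and in D1 Sus against Res, from 0 to 2 in Sus against Con inputs and from 0 to 1 in Sus against Res inputs. With D1-line inputs alone, 1 member passed in Sus against Res inputs (Crhbp, log2 -0.71, adjusted p = 0.710, edgeR). The enrichment in D1 minus that in D2 was called for 2 of 9 members with control libraries only, in place of 6, where fewer libraries were compared and 759 of 14922 genes were called in place of 3924 of 15404; the 4 lost were 0.93 for Crhbp, 0.40 for Tsc22d3, -0.37 for Crhr1 and -0.24 for Nr3c2 (log2). For Sirt1-KO against D1 Con the members called ranged from 0 to 2 on leaving out single libraries, and were 1 with no filter and 1 with DESeq2 (Crh, adjusted p = 0.0456 and 0.00671). With the replicate block they were 2 (Crh, log2 -1.23, adjusted p = 0.00274, and Crhbp, log2 0.85, adjusted p = 0.00300, edgeR). Of all genes 226 were called there, against 378 with no filter, 741 with DESeq2 and 1618 with the block. Same-numbered libraries of different groups did not all deviate together: r ran from -0.115 to 0.192 (median 0.0646, other pairs -0.00891) in D1-IPs, -0.131 to 0.314 (0.101, others -0.0305) in D2-IPs, -0.384 to 0.436 (0.00358, others 0.000605) in inputs and -0.00815 to 0.0772 (0.0688, others 0.00549) for Sirt1-KO against D1 Con. The median of same-numbered pairs was above that of other pairs in each set, with 3 such pairs for Sirt1-KO against D1 Con. What a shared number stands for is not given in the labels and was not tested, so the replicate block was used as an alternative only. The replicate block changed no other member's call, nor did the block of IP and input of a pool. As deviations from stress group means, r turned from -0.0232 to 0.0517 for Fkbp5 and Tsc22d3 in inputs, from -0.0231 to 0.0278 for Sgk1 and Tsc22d3 in inputs, and from -0.0255 to 0.0190 for Fkbp5 in input and IP of D1 pools. Causes were not tested. Depth limited Hsd11b1 (4 to 22 reads in IPs) and Crh in D2-IPs.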
